A study of Mus musculus with 14 samples.

Results

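The keratin gene family is described here through 49 genes, 47 of which are among the 21627 protein-coding genes of the autosomes and chromosome X that serve as the background (Krt85 has no entry in the gene table, and Krt74 is annotated there as a transcribed pseudogene). A keratin was counted for an antibody where the gene names of a peak in a replicate list held its symbol, at any distance class (promoter, gene body or distal). The members were 3 basal, 6 suprabasal and 4 stress-induced epidermal keratins, 6 simple epithelial keratins, 7 keratins of other stratified epithelia, 14 hair shaft keratins, and 9 keratins of the inner root sheath and companion layer. The 6 lists named 26 of them in at least 1 peak, and 23 in none.

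Keratins build the intermediate filaments of epithelial cells as obligate pairs of a type I and a type II protein, and most mouse keratin genes lie in a type I cluster and a type II cluster on different chromosomes. Which pair a cell makes follows its type: Krt5 with Krt14 in the basal epidermis, Krt1 with Krt10 above it, Krt8 with Krt18 in simple epithelia, and many cysteine-rich keratins in hair. Polycomb repressive complex 1 (PRC1), whose ligase subunit is Ring1b, adds ubiquitin to a lysine of histone H2A (the mark H2AK119ub), and Polycomb repressive complex 2 methylates a lysine of histone H3 (the mark H3K27me3). Both marks are known for their place at silent developmental genes.

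All samples came from the epidermis of newborn mice (postnatal day 0) of the genotype Krt14-RFP; Krt10-H2B-GFP. Cells were sorted as Sca1-positive, Krt14-RFP high and Krt10-H2B-GFP negative, so a pair of keratin reporters defined the gate, and no differentiated or Polycomb mutant cells are among the groups used here. Chromatin immunoprecipitation with sequencing (ChIP-seq) used 6000000 cells per precipitation for Ring1b and 400000 for each histone mark, with 2 replicates of each of these 3 antibodies. The labels do not say whether replicates came from separate animals or how the reporter alleles were made, so the spread between replicates may be technical, and whether reads from reporter copies of Krt14 or Krt10 sequence fall at the native genes was not tested.

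The lists held 4452 and 3058 Ring1b peaks, 3800 and 5712 H2AK119ub peaks, and 6040 and 3124 H3K27me3 peaks in replicates 1 and 2. Over all peaks of a list, the median ChIP to input read ratio was 2.40 (replicate 1) and 2.29 (replicate 2) for Ring1b, with 1.87 and 2.02 for H2AK119ub and 8.31 and 4.68 for H3K27me3. This ratio divides the authors' count of ChIP reads in a peak by their count of input reads there, is not scaled for library size, and is compared only within an antibody. Where a list named a gene in several peaks, the highest ratio was taken, and coordinates are those of the lists (mm10). Of 6 basal keratinocyte markers (Krt5, Krt14, Trp63, Itga6, Itgb4 and Col17a1), 0 were named by both lists of any antibody, while both H2AK119ub lists named 5 of 6 Merkel cell markers and 5 of 5 hair follicle markers, lists that include the keratins Krt8, Krt18, Krt20, Krt75 and Krt85. They named 3 of 4 fibroblast markers, 1 of 5 suprabasal markers, 0 of 4 melanocyte markers and 0 of 3 immune markers. Over all background genes, both lists named 8.51% for H2AK119ub, 9.93% for Ring1b and 9.83% for H3K27me3. With so few markers, a count of 0 is close to those shares. Peaks of these antibodies do not measure expression, so no keratin is called silent or expressed from them. No sample groups were compared across replicates, and the values that follow are descriptions with no p-value other than the deposited ones.

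Across the family, H2AK119ub was the mark most often found and Ring1b the least. Both H2AK119ub lists named 13 of 49 keratins (26.5%), beside 8.51% of the background genes, and a further 9 keratins were in 1 list, beside 6.72%. H3K27me3 was named in both lists at 4 keratins (8.16%), beside 9.83%, and in 1 list at 6, beside 5.36%. Ring1b was named in both lists at 1 keratin (2.04%), beside 9.93%, and in 1 list at another, beside 9.06%. Krt8 was the keratin with all 3 in both lists, beside 3.94% of the background, and Krt18 and Krt19 had both marks in both lists with no Ring1b peak. A further 7 keratins (Krt7, Krt15, Krt1, Krt78, Krt79, Krt84 and Krt85) were named by both H2AK119ub lists and by no Ring1b or H3K27me3 list. The 23 keratins with no peak in any list made up 46.9% of the family, beside 70.8% of the background. With replicate 2 alone H2AK119ub named 21 keratins, and with replicate 1 alone H3K27me3 named 10 and Ring1b 2. Where each peak also needed a deposited p-value of at most 0.001, H2AK119ub named 6 in both lists, Ring1b 0, and 37 keratins had no peak. No background share was computed for a replicate taken alone, for this limit, or for combinations other than all 3 together. Those counts therefore cannot be set beside the shares above.

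With peaks of the promoter class alone, both lists named 7 keratins for H2AK119ub (14.3%, beside 6.78%), 3 for H3K27me3 (6.12%, beside 8.71%) and 1 for Ring1b (2.04%, beside 8.97%). The 7 were Krt15, Krt7, Krt8, Krt18, Krt19, Krt82 and Krt75. Keratin genes are neighbours and can share a peak, so these counts are not over independent genes. The median H2AK119ub ratio of the peaks that named a keratin was 1.81 and 1.88 in replicates 1 and 2, against 1.87 and 2.02 over each whole list. For H3K27me3 the keratin medians were 6.50 and 3.30, against 8.31 and 4.68 over the lists. Of the 13 keratins in both H2AK119ub lists, the highest peaks of the lists overlapped at 5 (Krt7, Krt8, Krt18, Krt19 and Krt75) and lay apart at 8 (Krt15, Krt1, Krt78, Krt80, Krt79, Krt82, Krt84 and Krt85). For those 8, the SD printed with a mean is between different places of a gene, not between replicates at a place. Counting any peak named for a gene, 11 of the 13 had peaks that overlapped between the lists by at least 1 bp. Krt1 and Krt78 did not. In H2AK119ub replicate 1, 7 of 27 keratin peaks were of the promoter class (25.9%, against 49.4% of the list), and in replicate 2, 19 of 33 (57.6%, against 46.9%).

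Agreement between lists was uneven. Of 27 keratin peaks in H2AK119ub replicate 1, 23 (85.2%) overlapped a peak of replicate 2 by at least 1 bp, and of 33 in replicate 2, 15 (45.5%) overlapped one of replicate 1. Of the 9 keratins in 1 H2AK119ub list, 8 were in replicate 2, whose peaks held 1081890 ChIP reads in all, against 444944 in replicate 1. All 6 keratins in 1 H3K27me3 list were in replicate 1, whose peaks held 5212387 reads, against 2367561 in replicate 2. The part of depth in these calls of 1 list was not tested. Between marks, 10 of the 27 H2AK119ub peaks of replicate 1 overlapped an H3K27me3 peak of replicate 1, and 1 overlapped Ring1b, at Krt8.

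**Figure D1:**
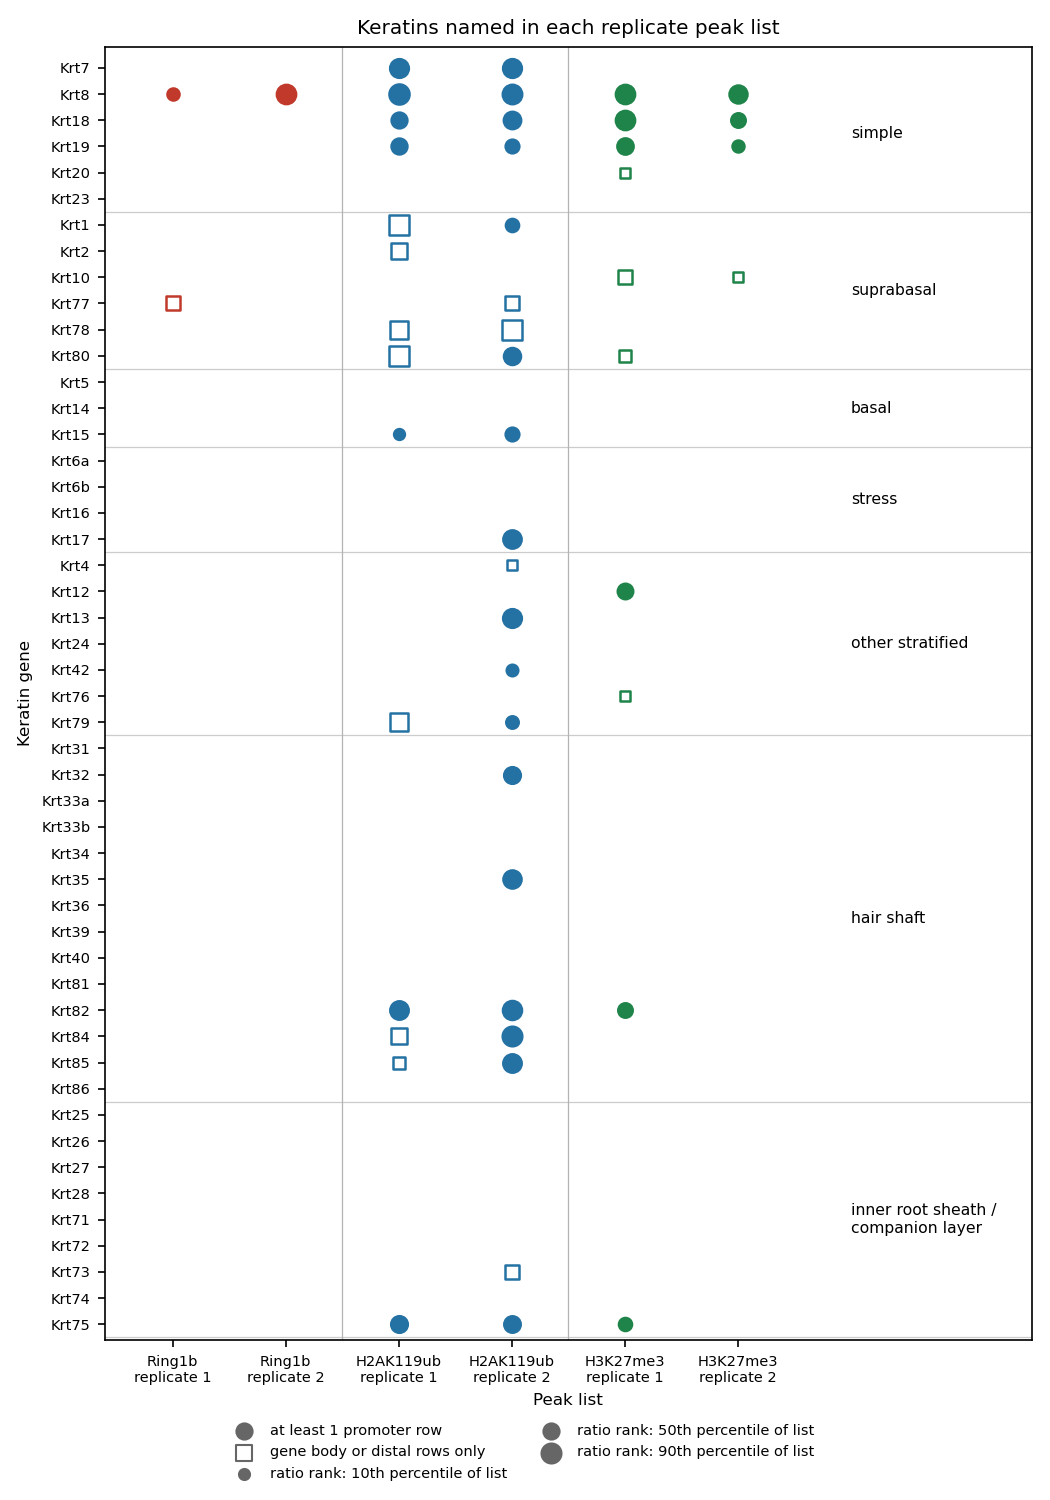
Each row is 1 of the 49 keratins, grouped by where it is expressed, and each column is 1 of the 6 replicate lists; filled circles are genes with a promoter peak, open squares genes with gene body or distal peaks alone, and larger symbols rank higher by ratio within the list. The simple keratins Krt8, Krt18 and Krt19 fill both columns of both histone marks, and 23 rows are empty.

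Counts were taken for the 3 main classes. Both H2AK119ub lists named 4 of 6 simple keratins (66.7%), 4 of 9 basal and suprabasal keratins (44.4%) and 4 of 23 hair keratins (17.4%, shaft and root sheath together), beside 8.51% of the background genes. In promoter peaks these counts were 4, 1 and 2, beside a background of 6.78%. Both H3K27me3 lists named 3 of 6 simple keratins, 1 of 9 basal and suprabasal keratins and 0 of 23 hair keratins, beside 9.83%. No peak of any list named 1 of 6 simple (16.7%), 2 of 9 basal and suprabasal (22.2%) and 16 of 23 hair keratins (69.6%), beside 70.8% of the background, so the hair share was near that of genes at large. With replicate 2 alone H2AK119ub named 7 hair keratins, with replicate 1 alone H3K27me3 named 2 of them and 2 basal and suprabasal keratins, and with the p-value limit H2AK119ub named 0 hair keratins in both lists. No background share was computed for these settings. Whether the classes differ was not tested, since genes of a cluster are not independent and each class is small.

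Among the simple keratins, Krt8 and Krt18 lay under broad peaks of both histone marks. These genes lie side by side at the end of the type II cluster, where Krt18 is the only type I gene. Promoter windows of 300 bases (250 before the start to 50 after it) are shown for both, for Krt7, the simple keratin whose window has the most CpG, and for the basal keratin Krt5, which has no peak. They were taken from RefSeq (GRCm38.p6, on which mm10 is built) and are printed 5′ to 3′ on the gene's strand with each CpG in capitals. The windows are chr15:102004293-102004592 (minus strand), chr15:102027966-102028265 (plus strand), chr15:101412153-101412452 (plus strand) and chr15:101712856-101713155 (minus strand).
Krt8: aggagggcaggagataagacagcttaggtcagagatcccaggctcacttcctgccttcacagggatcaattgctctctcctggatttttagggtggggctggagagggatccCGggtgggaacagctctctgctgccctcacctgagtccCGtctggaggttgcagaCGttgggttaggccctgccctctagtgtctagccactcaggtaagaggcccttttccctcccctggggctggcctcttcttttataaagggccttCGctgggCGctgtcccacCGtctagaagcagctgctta
Krt18: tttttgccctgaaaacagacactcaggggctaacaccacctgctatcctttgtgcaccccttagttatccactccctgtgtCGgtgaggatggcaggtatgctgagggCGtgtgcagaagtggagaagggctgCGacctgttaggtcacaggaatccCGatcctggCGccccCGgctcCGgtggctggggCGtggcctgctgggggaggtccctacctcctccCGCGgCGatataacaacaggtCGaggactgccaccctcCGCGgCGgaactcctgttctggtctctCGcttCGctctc
Krt7: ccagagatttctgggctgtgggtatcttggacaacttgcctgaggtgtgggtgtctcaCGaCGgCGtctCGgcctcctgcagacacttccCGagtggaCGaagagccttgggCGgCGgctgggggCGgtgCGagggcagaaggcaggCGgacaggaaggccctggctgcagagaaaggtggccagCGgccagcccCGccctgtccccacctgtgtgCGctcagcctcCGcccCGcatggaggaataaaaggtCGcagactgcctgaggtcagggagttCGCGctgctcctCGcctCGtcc
Krt5: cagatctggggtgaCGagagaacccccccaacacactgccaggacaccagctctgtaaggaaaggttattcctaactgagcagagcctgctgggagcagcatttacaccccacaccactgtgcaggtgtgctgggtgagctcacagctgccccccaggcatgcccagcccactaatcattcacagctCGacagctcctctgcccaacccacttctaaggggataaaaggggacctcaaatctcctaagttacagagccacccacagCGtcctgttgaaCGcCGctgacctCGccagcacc
Krt18 and Krt7 have 17 and 21 CpG, and Krt8 and Krt5 have 6 each. Whether CpG content bears on the marks was not tested. The windows of Krt8 and Krt18 were overlapped by peaks of both H2AK119ub lists and both H3K27me3 lists, that of Krt7 by H2AK119ub replicate 2 alone, and that of Krt5 by no list.

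Krt8, the type II keratin of simple epithelia, had 754 ChIP against 330 input reads of H2AK119ub in its promoter peak of replicate 1 and 1589 against 624 in replicate 2. These peaks ran over 16718 bp (chr15:102001417-102018134) and 30706 bp (chr15:101990462-102021167), at length rank 69 of 3800 and 37 of 5712. The promoter peaks had ratios of 2.28 and 2.55 (2.42 ± 0.185, SD, n = 2 lists). With the highest peak of each list the mean was 2.61 ± 0.0850 (SD, n = 2 lists). That pair sets a gene body peak of 1154 bp in replicate 1 (48 against 18 reads) beside the 30706 bp peak of replicate 2. In both replicates the H2AK119ub domain lay over the start of Krt8 and beyond it.

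H3K27me3 at Krt8 had 9955 ChIP against 786 input reads in replicate 1 and 1839 against 339 in replicate 2, ratios of 12.7 and 5.42 (9.05 ± 5.12, SD, n = 2 lists). They exceeded 81.6% and 67.8% of the peaks of their own lists. In replicate 1 the peak was 68225 bp long (chr15:101988644-102056868), at length rank 8 of 6040, and it also named Krt18. In replicate 2 the domain was split into a Krt8 peak of 17872 bp and a Krt18 peak of 29891 bp. The medians of the whole lists differed in the same direction, 8.31 in replicate 1 and 4.68 in replicate 2.

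Ring1b at Krt8 had 115 ChIP against 64 input reads in replicate 1 and 54 against 16 in replicate 2. The ratios were 1.80 and 3.38 (2.59 ± 1.12, SD, n = 2 lists), above 16.9% and 82.0% of the peaks of their lists. The peaks began 357 bp and 695 bp upstream of the annotated start, beyond the printed window, and covered 2761 bp and 852 bp inside the H2AK119ub and H3K27me3 domains. Replicate 1 had a deposited p-value of 0.0608 and replicate 2 one of 3.85e-05. The median Ring1b peak of these lists had 68 ChIP reads in replicate 1 and 63 in replicate 2. The Krt8 ratio ranked low in replicate 1 and high in replicate 2.

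Krt18, the type I partner of Krt8, had 417 ChIP against 227 input reads of H2AK119ub in replicate 1 and 1104 against 511 in replicate 2. Its ratios of 1.84 and 2.16 (2.00 ± 0.229, SD, n = 2 lists) lay below both Krt8 values. Its H3K27me3 peak in replicate 2 had 2965 ChIP against 725 input reads, a ratio of 4.09, and its replicate 1 peak is the shared 68225 bp domain. From the end of Krt8 to the end of Krt18, a stretch of 35316 bp, H2AK119ub peaks covered 77.2% and 96.2%, H3K27me3 peaks 100% and 96.7%, and Ring1b peaks 7.82% and 2.41%.

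Krt19, the smallest type I keratin, found in simple epithelia and hair follicle bulge cells, is in the type I cluster beside Krt15. Its H2AK119ub peaks had 131 ChIP against 71 input reads in replicate 1 and 554 against 312 in replicate 2, the second shared with Krt15 (1.81 ± 0.0491, SD, n = 2 lists). H3K27me3 peaks had 480 against 57 and 142 against 43 reads, ratios of 8.42 and 3.30 (5.86 ± 3.62). No Ring1b list named it. Krt19 thus had both marks in both lists, at ratios close to the list medians in replicate 1 and below them in replicate 2.

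Krt7, a type II keratin of ducts and glands, had H2AK119ub promoter peaks with 103 against 57 reads (1.81) and 303 against 173 reads (1.75), and stronger gene body peaks that bring the mean to 2.29 ± 0.142 (SD, n = 2 lists). It had no H3K27me3 and no Ring1b peak in any list. Krt20, a keratin of gut epithelium and Merkel cells, had 1 H3K27me3 peak in replicate 1 only, distal, with 200 ChIP against 54 input reads (3.70) and a deposited p-value of 0.0905. Krt23 had no peak.

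**Figure D2:**
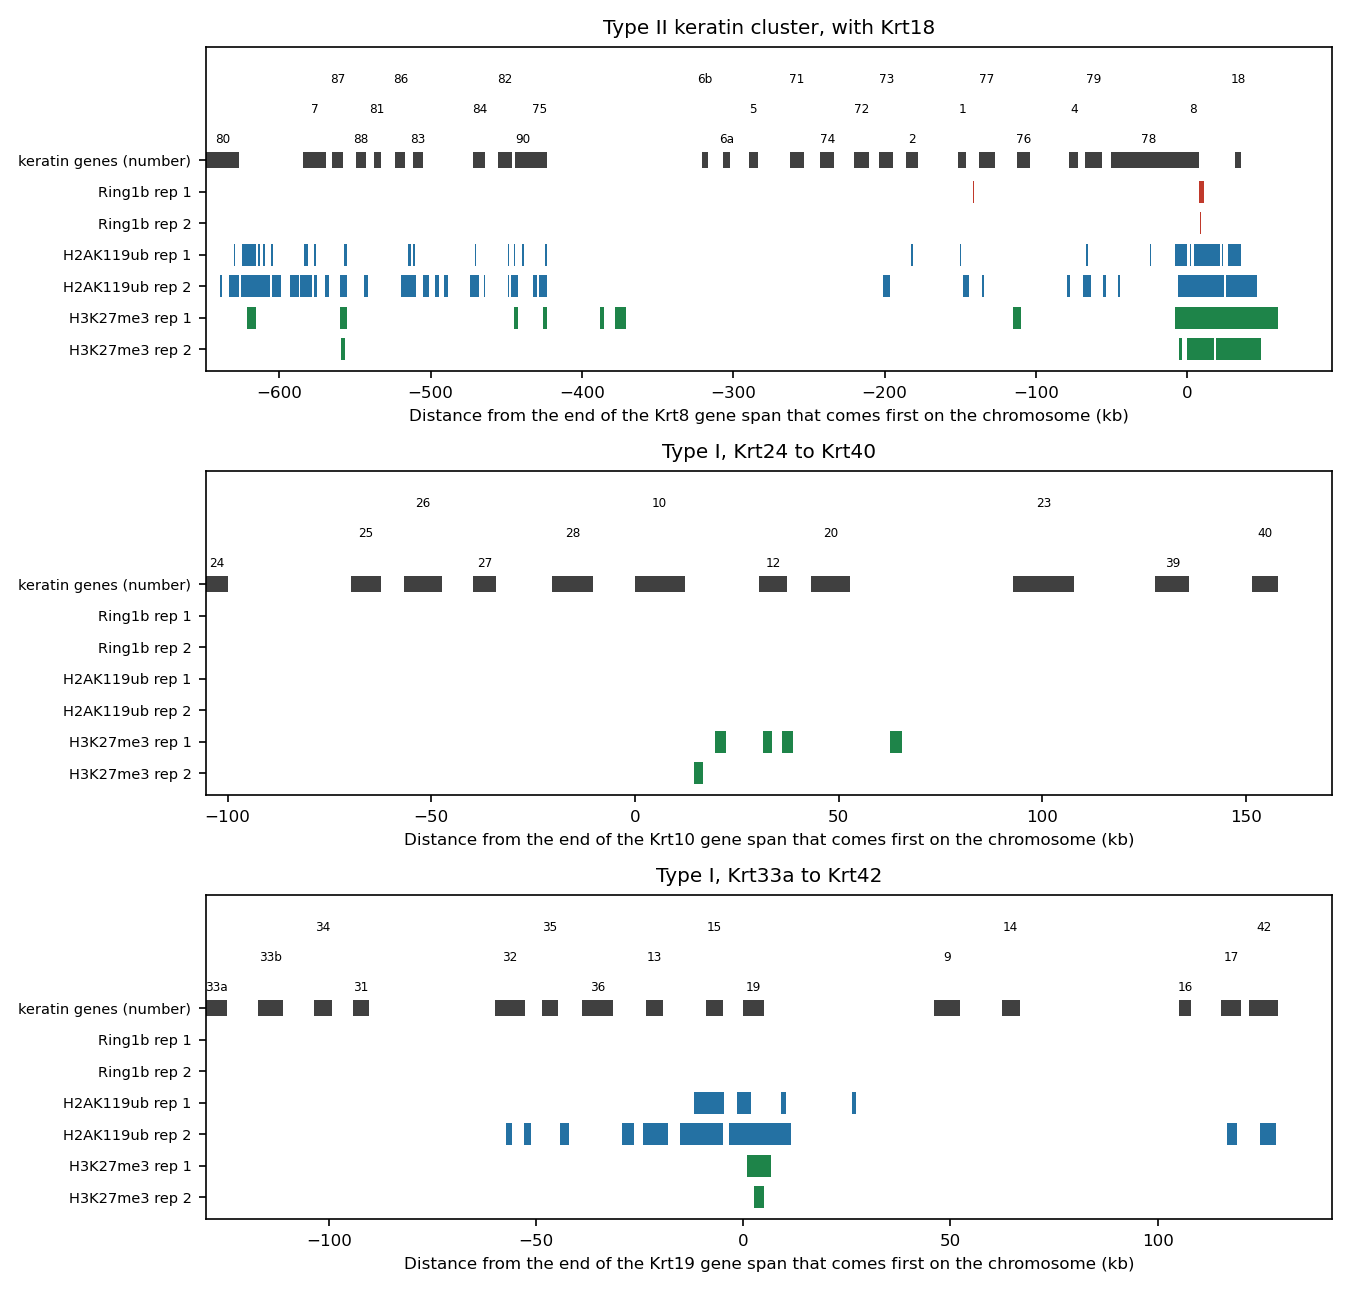
The type II cluster and both parts of the type I cluster, in kb from the first end of Krt8, Krt10 or Krt19, with keratin spans above (labelled by number) and the peaks of the 6 lists in rows below. Peaks of H2AK119ub replicate 2 are more and longer than those of replicate 1, and the broad domains over Krt8 and Krt18 stand at the right end of the type II map. Stretches around Krt5, Krt14 and the inner root sheath genes Krt25 to Krt28, Krt71, Krt72 and Krt74 hold no peak.

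In the basal and suprabasal class, Krt5 and Krt14, the keratin pair of basal cells, had no peak in any list, and Krt14 was the gene whose reporter defined the gate. The stretch around Krt5 without a peak in all 6 lists was 169670 bp (chr15:101626116-101795785) and held 6 members, Krt5, Krt6a, Krt6b, Krt71, Krt72 and Krt74. The stretch around Krt14 was 89547 bp (chr11:100168122-100257668) and held Krt14 and Krt16. These empty stretches held basal, stress-induced and inner root sheath keratins alike.

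Krt15, a basal and bulge keratin, was the basal keratin with H2AK119ub in both lists. It had 261 ChIP against 186 input reads in replicate 1, a ratio of 1.40 that exceeded 8.53% of its list, and 554 against 312 in replicate 2, in the peak shared with Krt19 (1.59 ± 0.263, SD, n = 2 lists). The peaks behind that mean lay apart. In each list a peak covered 100% of the Krt15 span, in replicate 2 a neighbour of the shared peak with 451 ChIP against 263 input reads. No H3K27me3 or Ring1b list named it.

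Of the suprabasal keratins, Krt1, Krt78 and Krt80 had H2AK119ub in both lists and Krt2 and Krt77 in 1. Krt80, a type II keratin of differentiating epithelia, had 988 ChIP against 466 input reads in a 19352 bp peak of replicate 2. Its highest peak of replicate 1 had 33 against 13 reads and lay apart from that peak (2.33 ± 0.296, SD, n = 2 lists). Another replicate 1 peak named for Krt80, distal, of 9013 bp with 376 against 219 reads, lay inside the 19352 bp peak. Krt1 had 29 against 11 reads in the gene body in replicate 1 and 144 against 83 at the promoter in replicate 2, and these peaks did not overlap (2.19 ± 0.637). The peaks named for Krt78 had 30 against 14 reads (distal, replicate 1) and 31 against 7 (gene body, replicate 2), also apart (3.29 ± 1.62). The annotated span of Krt78 runs up to Krt8, and peaks that the authors named for Krt8 or Krt18 reach into it in both lists of both marks. Over that span H2AK119ub peaks covered 16.8% and 13.8%, and H3K27me3 peaks, none of them named for Krt78, covered 15.8% and 4.76%.

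Krt10, the partner of Krt1 whose reporter had to be absent in the sort, had no H2AK119ub peak. Both H3K27me3 lists named it, in distal peaks 15656 bp and 10289 bp from its start with 233 ChIP against 32 input reads and 164 against 72, which did not overlap (7.28 and 2.28). That start lies 8085 bp inside the upstream end of the annotated Krt10 span, so both peaks lie nearer to the span than these distances. The replicate 2 peak exceeded 0.928% of its list. Krt77 had the other Ring1b peak of the family, distal, in replicate 1 only, with 38 against 19 reads and a deposited p-value of 0.156. Krt77 also had H2AK119ub in replicate 2 only (38 against 21 reads), and Krt2, of the upper epidermal layers, in replicate 1 only (41 against 23). Krt80 had a distal H3K27me3 peak in replicate 1 only, with 458 ChIP against 89 input reads (5.15).

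Of the stress-induced keratins, which are made in wounded epidermis and in appendages, Krt17 had H2AK119ub in replicate 2 only (97 against 42 reads, 2.31), and Krt6a, Krt6b and Krt16 had no peak. Krt6a and Krt6b are near-identical, so reads may not be placed reliably between them. Among keratins of other stratified epithelia, Krt79, a keratin of the hair canal, had H2AK119ub in both lists. Its highest peaks had 41 against 20 and 82 against 49 reads and lay apart (1.86 ± 0.266, SD, n = 2 lists). Another replicate 2 peak named for Krt79, with 197 against 123 reads, lay over the replicate 1 peak. Krt13, the mucosal partner of Krt4, had a promoter peak of 225 ChIP against 95 input reads in replicate 2 only (2.37). Krt4 (77 against 56, 1.38) and Krt42 (129 against 81, 1.59) were in replicate 2 only as well, with deposited p-values of 0.376 and 0.0627. The corneal keratin Krt12 (208 against 27 reads, 7.70) and the palate keratin Krt76 (305 against 73, 4.18) had H3K27me3 in replicate 1 only, and Krt24 had no peak.

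Among the 14 shaft keratins, H2AK119ub was in both lists at Krt82, Krt84 and Krt85 and in replicate 2 only at Krt32 (56 against 27 reads, 2.07) and Krt35 (98 against 43, 2.28). Krt82, a cuticle keratin, had 43 ChIP against 20 input reads in replicate 1 and 54 against 22 in replicate 2 (2.30 ± 0.215, SD, n = 2 lists), and in its longest promoter peaks 2.13 ± 0.0267. Krt84, known from nail and tongue, had 28 against 15 and 39 against 15 reads (2.23 ± 0.519). Krt85, an early keratin of the hair matrix, had 73 against 47 and 168 against 72 reads (1.94 ± 0.552), and the replicate 2 peak also named Krt83. For Krt82, Krt84 and Krt85 the highest peaks of the lists lay apart. Each of these keratins still had a peak of replicate 1 that overlapped a peak of replicate 2. The RefSeq table has no entry for Krt85, and its peaks lay over or near the spans of closely similar shaft keratins (Krt83, Krt86 and Krt88), so that assignment is uncertain.

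Krt75, the keratin of the companion layer, was the member of the inner root sheath and companion group with H2AK119ub in both lists, 48 against 25 and 201 against 98 reads (1.99 ± 0.0926, SD, n = 2 lists), 217 bp and 275 bp from its start. Krt73 was in replicate 2 only (166 against 89 reads, 1.87). H3K27me3 replicate 1 named Krt75 and Krt82 in promoter peaks with 212 against 35 reads (6.06) and 208 against 30 (6.93), and replicate 2 named neither. The peak named for Krt82 lay 951 bp from its start, over the span of the neighbouring Krt90 and outside that of Krt82, as did the highest replicate 1 H2AK119ub peak named for Krt82. In the part of the type II cluster from Krt80 to Krt75, H2AK119ub peaks covered 11.9% and 43.6% of 225590 bp in replicates 1 and 2.

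**Figure D3:**
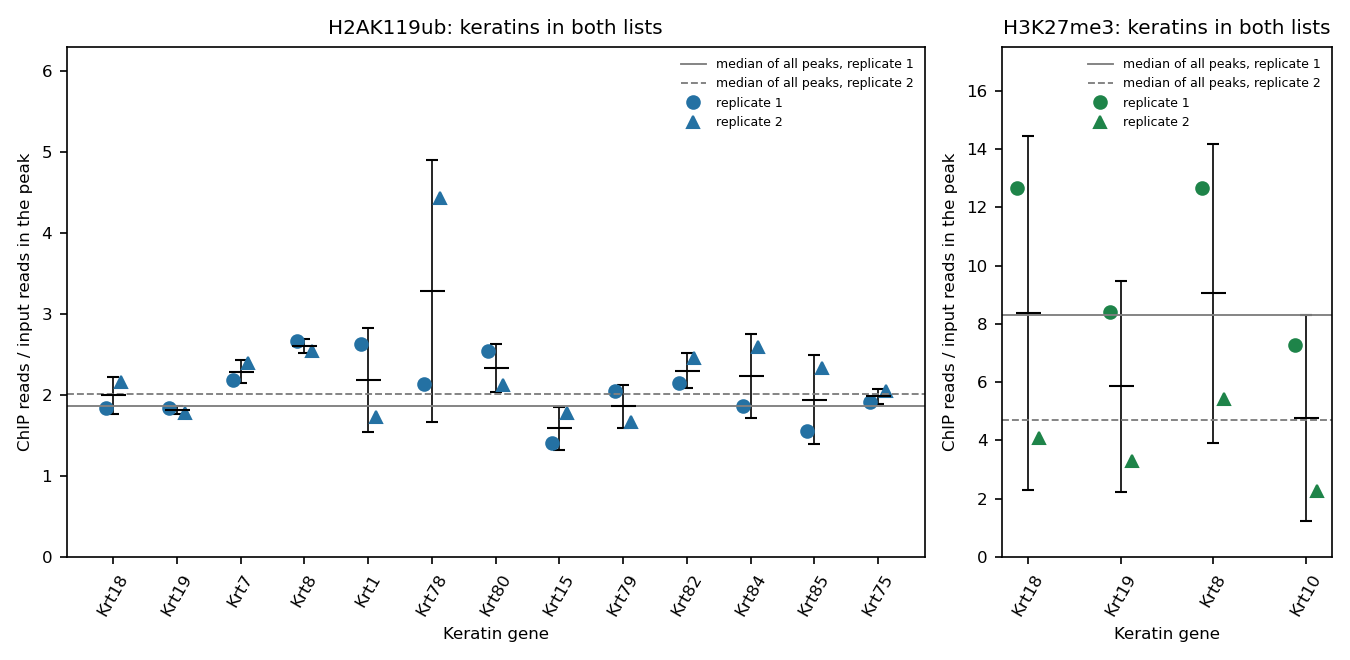
ChIP to input read ratio of the highest peak of each keratin that both H2AK119ub lists (left) or both H3K27me3 lists (right) named; circles are replicate 1, triangles replicate 2, black bars the mean and SD, and grey lines the medians of all peaks in each list. Krt8 is above the median in both lists of both marks, and the replicate values of Krt78 (2.14 and 4.43) lie farthest apart among the H2AK119ub pairs.

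The 16 hair keratins with no peak in any list were the shaft keratins Krt31, Krt33a, Krt33b, Krt34, Krt36, Krt39, Krt40, Krt81 and Krt86 and the inner root sheath keratins Krt25, Krt26, Krt27, Krt28, Krt71, Krt72 and Krt74. No list named Krt86, yet a replicate 2 H2AK119ub peak that the authors named for Krt85 covered 40.6% of its span, so its place among the unmarked genes depends on that naming. With peaks assigned by position, within 5000 bp of a gene span, Krt36 and Krt81 had a peak as well. As background, these genes belong to hair follicle programmes and not to interfollicular basal cells, and expression was not measured here. Krt33a and Krt33b are close copies of each other, as are Krt81 and Krt86, so their reads are uncertain between copies. The shaft keratins Krt31, Krt33a, Krt33b and Krt34 lie in a stretch of 87866 bp with no peak in the 6 lists. Krt24 to Krt28 and the body of Krt10 lie in another of 168470 bp, and Krt23, Krt39 and Krt40 in one of 541777 bp. H2AK119ub and Ring1b had 0 peaks in both lists over the 263262 bp from Krt24 to Krt40, while H3K27me3 had 4 and 1. Absence here means that no peak was listed, at a library depth that the sources used here do not state.

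Of the 49 members, 34 had a promoter window in the RefSeq table, 6 of them more than 100 bp from the end of the annotated gene span. The members' median was 5.5 CpG against 13 over 21044 windows of protein-coding genes, and 2 members, Krt7 and Krt18, reached that median. Genes with H2AK119ub promoter peaks in both lists had a median of 20 CpG, and those with H3K27me3 a median of 17. The 5 keratins with H2AK119ub promoter peaks in both lists and a window had 6 to 21 CpG (median 8), and the 16 with no peak had 2 to 11 (median 5.5). The letters TATAAA, on either strand, occurred in 19 of 34 keratin windows, beside 12.7% of all windows, and in 10 of the 16 with no peak. CCCGCC was in 3 of 34, beside 46.0% of all, and GCCNNNGGC in 5 of 34, beside 20.1%. A match describes the letters of a window and nothing more.

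**Figure D4:**
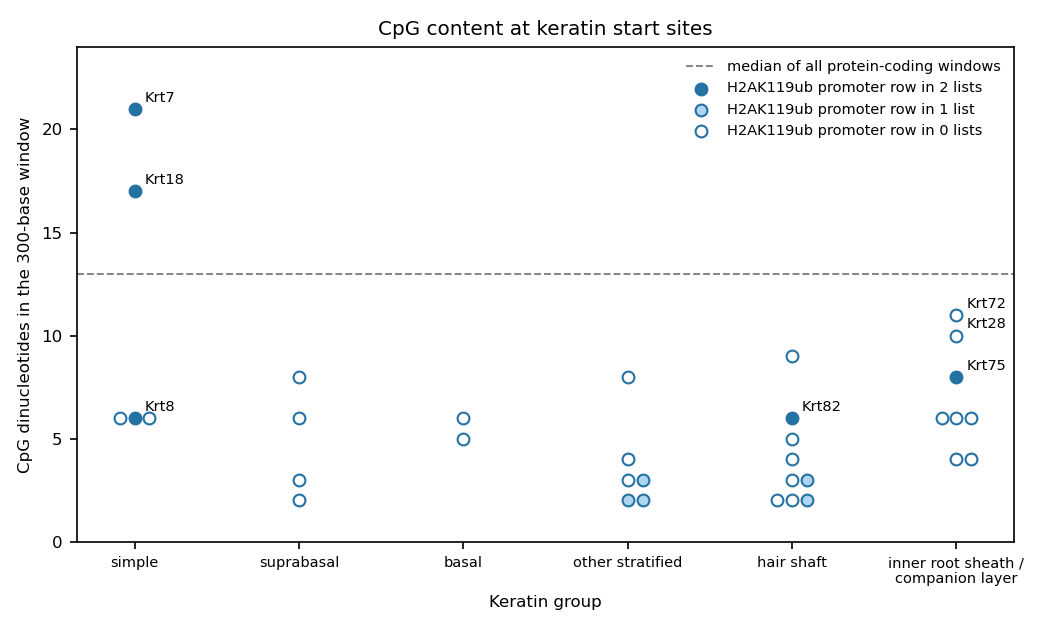
CpG in the 300-base promoter window of each of the 34 keratins with one, by group, with filled, pale and open circles for H2AK119ub promoter peaks in 2, 1 and 0 lists; the dashed line is the median of 21044 windows, 13. Krt7 (21) and Krt18 (17) are above the line, and all hair keratins lie below it.

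Other gene lists were counted in the same way. Of 6 keratins outside the family as counted here, both H2AK119ub lists named 2 (33.3%, beside 8.51% of the background). These were Krt87 (1.91 ± 0.629, SD, n = 2 lists) and, in peaks that lay apart, Krt90 (2.04 ± 0.131). Both H3K27me3 lists named Krt87 (9.82 ± 4.11), 16.7% of the 6, beside 9.83%. Ring1b named 0 of the 6. Of 18 other intermediate filament genes, both Ring1b lists named 7 (38.9%, beside 9.93% of the background). Among these, Ina (Ring1b ratio 3.08 ± 0.809) and Prph (1.97 ± 0.00850) of neurons and Nes (2.24 ± 0.558) of neural progenitors also had both marks in both lists. The rest (Nefl, Synm, Lmnb1 and Iffo2) did not, and Lmnb1 had neither mark in any list. Of 18 genes for proteins that link or bundle keratins, both Ring1b lists named 2 (11.1%), the desmosomal Pkp2 (3.10 ± 0.0922) and Tchh (2.62 ± 0.289), the trichohyalin of the inner root sheath, and 12 had no peak (66.7%), shares near the background of 9.93% and 70.8%.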

How the data were processed

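Peaks of Ring1b, H2AK119ub and H3K27me3 were read from 6 replicate lists, and union lists served as an alternative. The remaining 8 samples were not analysed here. Per the submitters' processing notes, the tools were MACS2 2.1.0, SAMtools 0.1.19, Bowtie2 2.2.3, Bowtie 1.1.1 and Trim Galore 0.4.1, and the build was mm10. The caller behind the lists, the test for the p-value, any input scaling and the base that starts count from were not given in the sources used here.

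Per the file headers, each deposited row gives a peak's position, its maximum height (a coverage signal, not used for results), whole-number read counts per strand for ChIP and for input, a p-value, a location class and gene names. The read counts carry no stated normalization in the authors' lists. The deposited p-value was used only to describe peaks and as a threshold of 0.001 in an alternative. Reads per library are unknown, so read ratios were not scaled.

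A gene was called where both replicate lists of an antibody named it. The ratio of ChIP to input reads was computed for each row, and its mean and SD over 2 lists. Every member that a list named is described, and the rest are named. Members and gene lists were chosen with earlier results of these data known. Of 7264 gene names, 7074 matched a RefSeq symbol and 178 a synonym. Counting of named genes, peak coverage and peak overlap were tested on simulated lists, and the ratios were not. Python 3.11.15, numpy 2.4.6, pandas 2.3.3 and matplotlib 3.10.9 were used.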

Additional observations from a re-analysis of the deposited data

How the results depend on the processing

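For simple keratins, the counts of 4 for H2AK119ub and 3 for H3K27me3 stayed within 1.5 times under each alternative listed here. With promoter peaks alone, H2AK119ub fell to 7 members, with 1 basal or suprabasal and 2 hair keratins, and H3K27me3 to 0 basal or suprabasal. With a deposited p-value of at most 0.001, Ring1b and all 3 together came to 0, H2AK119ub to 6 (2 basal or suprabasal, 0 hair), and keratins with no peak to 37, and the Ring1b ratio had no value. In the union lists Ring1b named 2 members, H2AK119ub 22 (7 hair) and H3K27me3 10 (2 basal or suprabasal, 2 hair). Where replicate peaks had to overlap, by 1 bp or by 0.5 of the shorter, H2AK119ub named 11 members and H3K27me3 3. For H2AK119ub, 2 basal or suprabasal, 4 simple and 4 hair keratins remained. For H3K27me3, 0 basal or suprabasal, 3 simple and 0 hair keratins remained. Using 1 list at a time gave 1 to 2 for Ring1b, 14 to 21 for H2AK119ub (hair 4 to 7) and 4 to 10 for H3K27me3 (basal and suprabasal 1 to 2, hair 0 to 2). With peaks assigned by position, within 5000 bp of a gene span, Ring1b named 1 member, H2AK119ub 13 and H3K27me3 4, and 21 had no peak. There Krt86 replaced Krt85 for H2AK119ub, and Krt78 replaced Krt10 for H3K27me3. Krt85 has no span in the gene table. Apart from promoter peaks, no background share was computed for these alternatives. The median ratio over members was 2.59 for Ring1b, 2.19 for H2AK119ub and 7.12 for H3K27me3. Divided by each list's median it was 1.11, 1.14 and 1.03. For H2AK119ub it was 1.96 with the p threshold, 1.87 with reads summed over rows, 1.99 for the longest promoter row, an alternative chosen after seeing the data, and 2.05 to 2.16 with 1 list. With 1 list it was 3.70 to 10.5 for H3K27me3 and 1.80 to 3.38 for Ring1b, which rests on Krt8 alone. Dividing by the list median changes the scale by construction. It also sets the highest of a gene's peaks against a median over all peaks. Values above 1 therefore do not show that keratin peaks are stronger than others. Over all keratin peaks of H2AK119ub and of H3K27me3, the median ratios lay below those of the lists. Among single keratins, the ratio moved by more than its SD in 4 of 18 cases with summed reads and in 2 of 11 with the longest promoter row, and in 0 of 18 with 1 read added. The cause of the other shifts was not tested. No paired analysis was possible because the results come from no test between groups.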
